A study of Bos taurus with 6 samples.

Results

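The SLC25 family, the carrier proteins that move metabolites across the inner mitochondrial membrane, was examined in cultured stromal cells of the bovine ovary. Members were all genes whose platform symbol was SLC25A followed by a number, and 44 of the 18010 genes measured qualified. Where a gene had several probe sets the brightest on average was used, which among the carriers concerned only SLC25A6. The tumor group was 3 samples of stromal cells from ovarian tumor, and the normal group was 3 samples of stromal cells from normal ovary. Both were grown in DMEM/F12 medium with FKS, as the labels abbreviate the supplement, and neither received a specific treatment. The labels gave no age, strain or genotype of the animals and no tumor type, and did not say whether the samples of a group came from separate animals or cultures, so a p-value here reflects nothing beyond the scatter of these samples, part of which may be technical. Values are log2 expression from arrays normalised by RMA, a method that corrects background, equalises the distributions of the arrays and summarises probes. A difference of 1 on this scale is a 2-fold difference.

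SLC25 proteins share a fold of repeated membrane-spanning modules and exchange or carry solutes that the inner membrane does not let through. Through them ADP and phosphate enter the matrix for ATP synthesis and ATP leaves, reducing equivalents of cytosolic NADH are handed to the respiratory chain, acylcarnitines reach beta-oxidation, and amino acids, cofactors and iron reach matrix enzymes. Citrate that leaves the matrix through the family serves lipid synthesis in the cytosol. In whole cultures, fewer cells that express a gene and less RNA per cell cannot be told apart.

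Tumor stromal cells had less mRNA of the aspartate-glutamate carriers SLC25A12 and SLC25A13, the ornithine carrier SLC25A15, the oxoglutarate carrier SLC25A11, the phosphate carrier SLC25A3, the NAD carrier SLC25A51, SLC25A35 and 1 of the 4 ADP/ATP carriers, SLC25A5. They had more mRNA of the iron carrier SLC25A28 and of SLC25A16, SLC25A30, SLC25A36 and SLC25A45. Of the 44 carriers, 8 fell and 5 rose at an adjusted p of 0.05 (limma, Benjamini-Hochberg adjustment over all genes). These are 18.2% and 11.4% of the carriers, and over all genes 9.44% fell and 8.56% rose. In either direction 13 carriers (29.5%) were called, where the share over all genes was 18%. Most carriers lay above background in at least 1 group, some of them only slightly. The guide to background was the level of 3.54 under which 95% of the group means of 717 olfactory receptor probe sets lay. Above that level in at least 1 group stood 40 of the 44 carriers, of which 32.5% were called, and 12807 of all genes, of which 24.5% were called. The share of carriers called was not tested against that of other genes. In 19 carriers (43.2%) the groups did not overlap, and over all genes in 35.7%. All tumor samples lay below all normal samples in 12 carriers (27.3%, against 18.1% over all genes) and above them in 7 (15.9%, against 17.6% over all genes).

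**Figure D1:**
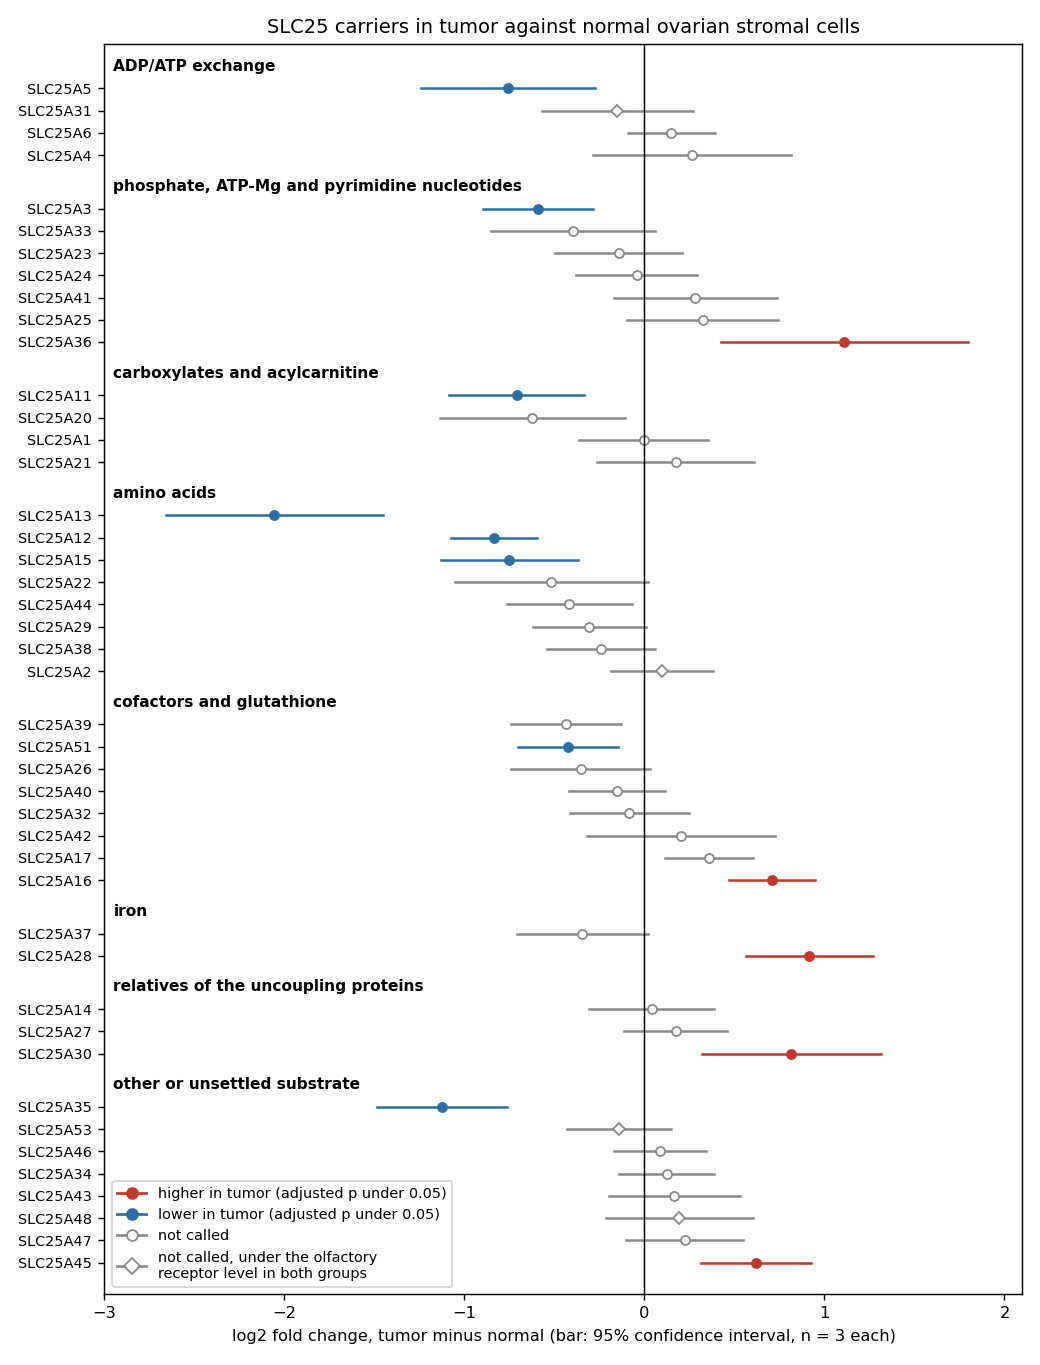
Log2 fold change (tumor minus normal, x axis) of the 44 SLC25 carriers, ordered by what they carry, with 95% confidence intervals from limma (n = 3 each). The 8 filled blue points left of 0 fell, led by SLC25A13 at -2.06, and the 5 filled red points right of 0 rose, led by SLC25A36 at 1.11; open symbols did not pass, and diamonds lay under the olfactory receptor level in both groups.

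Changes in both directions left the middle of the family close to 0. The median log2 fold change of the carriers was -0.06, and that of all genes was 0.02. Only SLC25A13, SLC25A35 and SLC25A36 differed by 2-fold or more. Each of the 13 called carriers kept its sign in all 6 fits that left out 1 sample, but only 5 of them were called in every one of these fits. Those 5 were SLC25A12, SLC25A13 and SLC25A35, which fell, and SLC25A16 and SLC25A28, which rose. Of the 13, 5 were still called without tumor replicate 1, tumor replicate 2 or normal replicate 2, and 8 without normal replicate 3. Without tumor replicate 1, SLC25A25 was called in addition, which made 6.

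**Figure D2:**
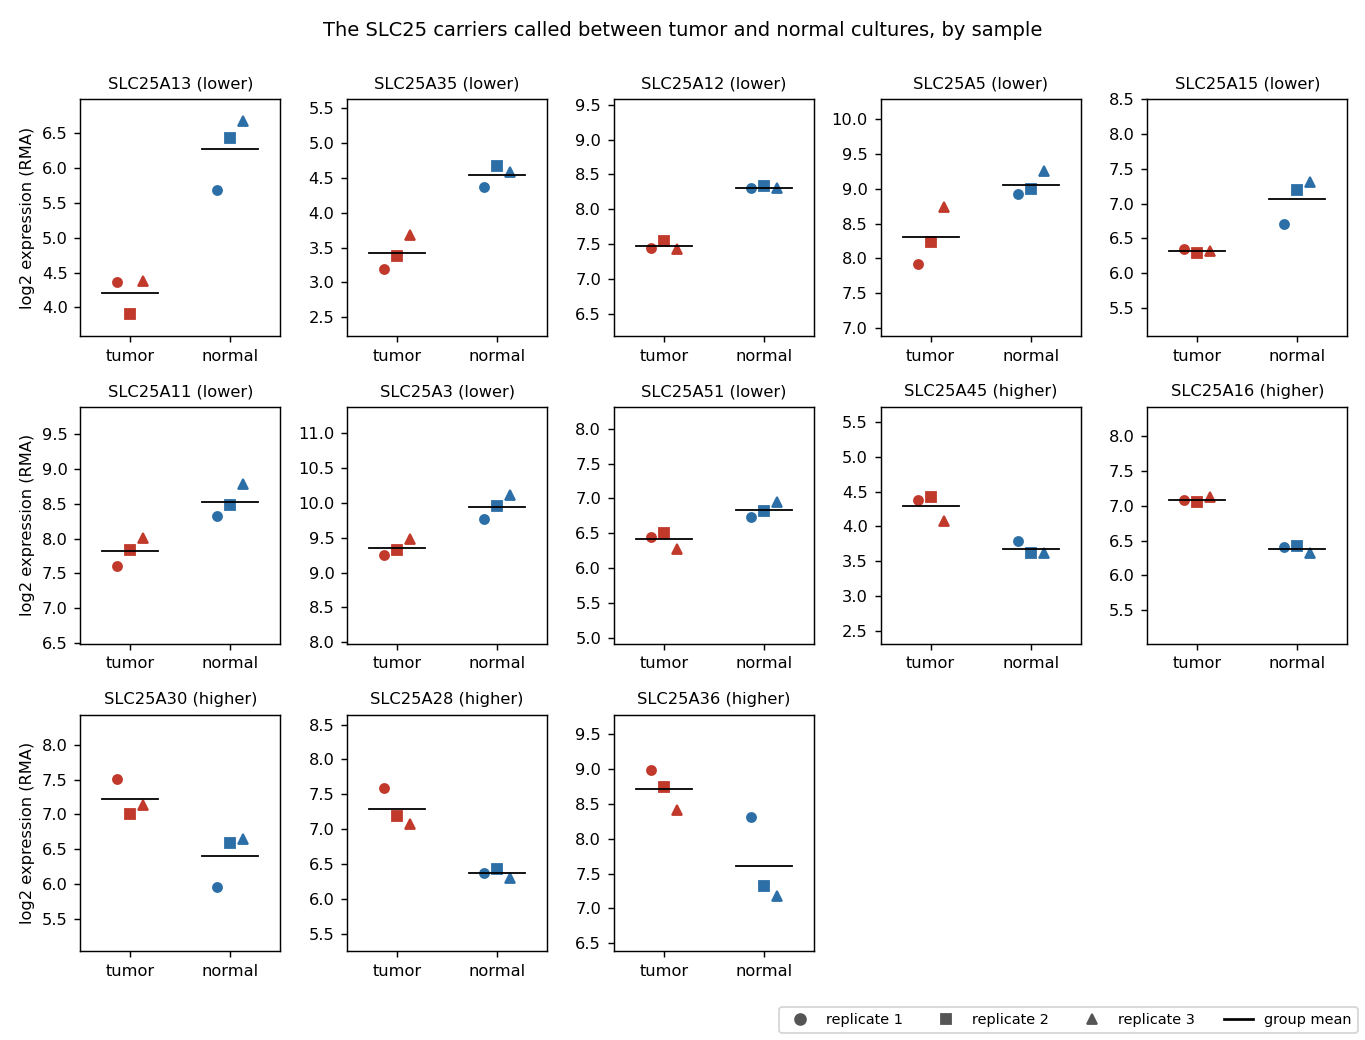
Log2 expression (y axis, each panel spanning the same number of log2 units) of the 13 called carriers in each tumor (red, left) and normal (blue, right) sample, with group means as black lines and replicates by symbol. The groups do not overlap in any panel; SLC25A12 and SLC25A16 show little spread within groups, and in SLC25A36 normal 1, at 8.31, sits next to tumor 3, at 8.41.

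Of 8 fibroblast markers, 8 were above the olfactory receptor level in both groups, and COL3A1 and PDGFRA rose in tumor cells; the summed log2 level of the list was 91.28 to 91.8 in tumor and 88.13 to 90.39 in normal samples. Among markers of other cells, 3 of 6 epithelial markers (KRT8, KRT18 and KRT19) fell, and the summed log2 level of that list was 22.14 to 22.67 in tumor and 25.64 to 29.44 in normal samples, with EPCAM under the olfactory receptor level in both groups. Of 7 leukocyte markers CD68 rose, with list sums of 26.56 to 27.13 in tumor and 24.49 to 25.59 in normal samples and PTPRC, AIF1 and ITGAM under that level in both groups. Of 6 granulosa markers FOXL2 fell, with a tumor mean of 3.35 that was under that level. AMH differed by 0.54, with all tumor samples above all normal samples, and was not called (adjusted p = 0.0569, limma). The sums of that list were 21 to 21.72 in tumor and 21.89 to 23.16 in normal samples, with CYP19A1, FSHR and INHA under the level in both groups. Of 6 endothelial markers 0 were called by limma and 0 had an unadjusted p under 0.05, with sums of 20.44 to 20.9 in tumor and 20.56 to 21.22 in normal samples and KDR and TEK under the level, and of 5 pericyte markers ABCC9 rose, under the level in both groups, and CSPG4 fell, with sums of 16.01 to 18.74 in tumor and 16.28 to 16.62 in normal samples. Over all genes 18% were called, with 9.44% that fell and 8.56% that rose. The part of these marker differences in the carrier results was not tested.

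Amino acid carriers were lower in tumor cells in 7 of the 8 measured, and 3 of these 7 differences passed the test. Over all genes 9.44% fell, and the 2 shares were not tested against each other. The largest was that of SLC25A13, or citrin, 1 of the aspartate-glutamate carriers that export aspartate from the matrix. SLC25A13 stood at 4.36, 3.90 and 4.38 in tumor cells and at 5.69, 6.44 and 6.68 in normal cells. The highest tumor value lay more than 1 log2 unit under the lowest normal value. The log2 fold change was -2.06 ± 0.26 (SE), a level 4.16-fold lower in tumor cells (adjusted p = 0.00212, limma). Its relative SLC25A12, or aralar, the aspartate-glutamate carrier best known from brain and muscle, stood at 7.45, 7.54 and 7.43 in tumor cells and at 8.30, 8.33 and 8.30 in normal cells. Replicates were almost level within each group, with standard deviations of 0.06 in tumor and 0.02 in normal cells (n = 3 each). SLC25A12 fell by 0.84 ± 0.10 on the log2 scale (adjusted p = 0.00187, limma).

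SLC25A15, which exchanges ornithine for citrulline and serves the urea cycle in liver, stood at 6.35, 6.29 and 6.32 in tumor cells and at 6.71, 7.19 and 7.31 in normal cells. The tumor samples agreed closely and the normal samples were spread, with normal 1 nearest to the tumor group. The fall of 0.75 ± 0.17 passed the test (adjusted p = 0.0188, limma), a call that was lost without tumor replicate 1, 2 or 3 or normal replicate 2 (adjusted p = 0.0536, 0.0653, 0.0521 and 0.0752, limma). Of the rest, SLC25A44, which carries branched-chain amino acids, differed by -0.42 ± 0.15 (adjusted p = 0.0967, limma), SLC25A29, a carrier of basic amino acids, by -0.31 ± 0.14, and SLC25A38, which imports glycine for heme synthesis, by -0.24 ± 0.13. All tumor samples lay below all normal samples in these, which made 6 of the 8, where the share over all genes was 18.1%. SLC25A22, a glutamate carrier, differed by -0.52 ± 0.23, with 6.15 in tumor 3 above 6.03 in normal 1. SLC25A2, the other ornithine carrier, was under the olfactory receptor level in both groups, at 2.90 ± 0.13 in tumor and 2.81 ± 0.12 in normal cells (SD, n = 3 each).

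Among the 4 carboxylate and acylcarnitine carriers, 1 fell and 0 rose by limma, and 2 had an unadjusted p under 0.05. The shares over all genes were 9.44% that fell and 8.56% that rose. SLC25A11, the oxoglutarate carrier, which exchanges malate for oxoglutarate, stood at 7.60, 7.84 and 8.01 in tumor cells and at 8.32, 8.48 and 8.78 in normal cells. Every tumor sample was below every normal sample. The fall was 0.71 ± 0.16 (adjusted p = 0.0217, limma), and the call was lost without tumor replicate 1 or 2 or normal replicate 2 or 3 (adjusted p = 0.0718, 0.0659, 0.0657 and 0.0533). SLC25A20, which brings acylcarnitines in for beta-oxidation, stood at 5.52, 5.60 and 5.77 in tumor cells and at 5.77, 6.29 and 6.70 in normal cells. Tumor 3 and normal 1 had the same value, and the other normal samples stood above every tumor sample. The difference of -0.62 ± 0.22 did not pass (adjusted p = 0.0964, limma), but did without normal replicate 1 (adjusted p = 0.0145). SLC25A1, the citrate carrier that exports citrate for lipid synthesis, stood at 8.36, 8.47 and 8.37 in tumor cells and at 8.69, 8.39 and 8.13 in normal cells. The normal samples spanned the tumor samples, and the interval of the log2 fold change ran from -0.36 to 0.35. SLC25A21, the carrier of oxoadipate and related acids, differed by 0.17 ± 0.19.

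SLC25A12, SLC25A13 and SLC25A11 are the carriers of the malate-aspartate shuttle, which brings the electrons of cytosolic NADH into the matrix with the help of aspartate aminotransferases and malate dehydrogenases on either side of the membrane. The 4 enzymes fell as well. GOT1, the cytosolic aminotransferase, stood at 7.32, 7.17 and 7.50 in tumor cells and at 7.88, 8.25 and 8.46 in normal cells. GOT2, the mitochondrial aminotransferase, stood at 8.17, 8.30 and 8.64 in tumor cells and at 9.06, 9.25 and 9.41 in normal cells. All tumor samples were below all normal samples for both. The falls were 0.87 ± 0.17 for GOT1 and 0.87 ± 0.16 for GOT2 (adjusted p = 0.0122 and 0.00915, limma).

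MDH1, the cytosolic malate dehydrogenase, stood at 7.44, 7.44 and 7.57 in tumor cells and at 7.99, 7.98 and 8.10 in normal cells. MDH2, its mitochondrial counterpart, stood at 9.14, 9.20 and 9.42 in tumor cells and at 9.84, 10.09 and 10.08 in normal cells. Neither enzyme had groups that overlapped, and MDH1 fell by 0.54 ± 0.11 and MDH2 by 0.75 ± 0.13 (adjusted p = 0.013 and 0.00763, limma). Together with the carriers, 7 of 7 shuttle genes fell, a grouping put together after the values were seen. Over all genes 9.44% fell, and in 18.1% all tumor samples lay below all normal samples. The call of GOT1 was lost without tumor replicate 2 or normal replicate 2 (adjusted p = 0.0509 and 0.0518, limma). That of MDH1 was lost without tumor replicate 2 (adjusted p = 0.0538), as was that of SLC25A11 (adjusted p = 0.0659), which was also lost in other fits given above.

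**Figure D3:**
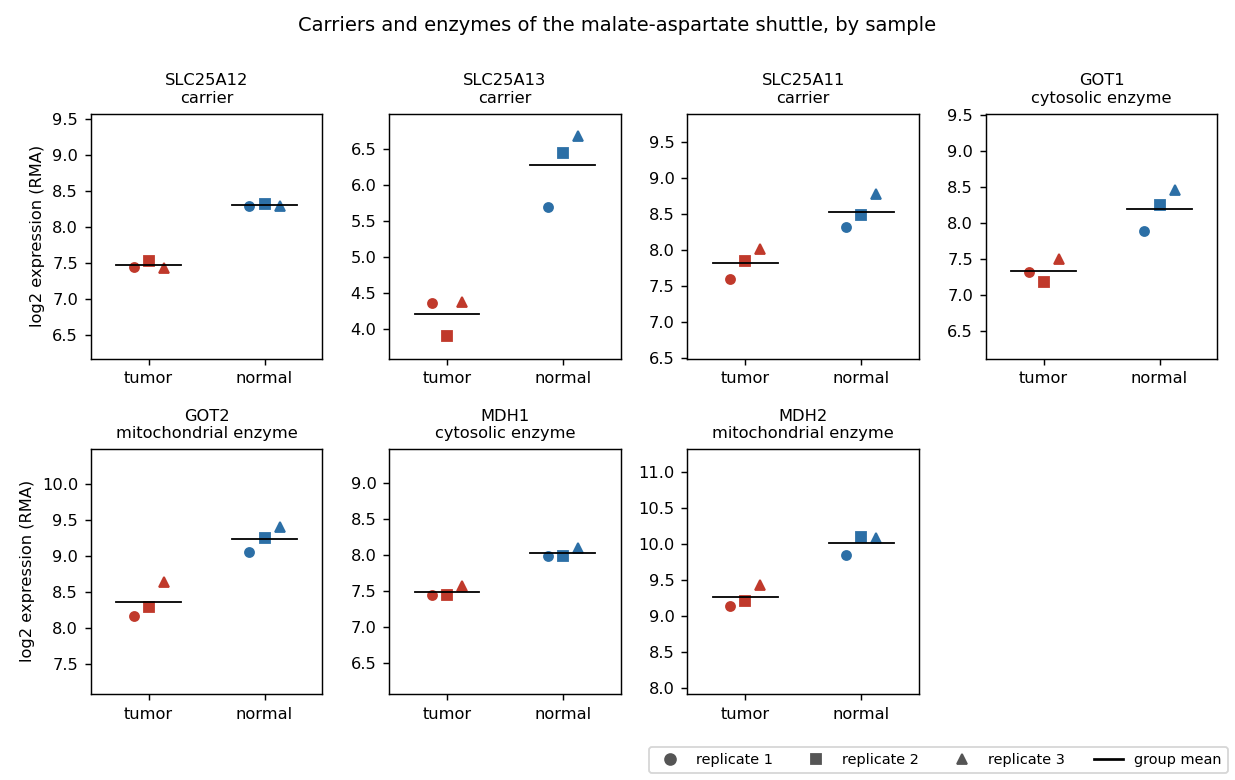
Log2 expression (y axis, each panel spanning the same number of log2 units) of the 3 carriers and 4 enzymes of the malate-aspartate shuttle in each tumor (red, left) and normal (blue, right) sample, with group means as black lines. In all 7 panels the tumor samples lie below the normal samples; the gap between means is widest for SLC25A13, at -2.06, and narrowest for MDH1, at -0.54.

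Of the 4 ADP/ATP carriers, which exchange cytosolic ADP for matrix ATP, 1 fell and 0 rose by limma. No other had an unadjusted p under 0.05. Over all genes 9.44% fell and 8.56% rose. SLC25A5, the isoform linked to growing cells, stood at 7.92, 8.24 and 8.74 in tumor cells and at 8.93, 8.99 and 9.25 in normal cells. The tumor samples were all below the normal samples, with tumor 3 closest to them. The fall of 0.76 ± 0.21 just passed (adjusted p = 0.0425, limma), and the call was lost without tumor replicate 1 or 2 or normal replicate 1, 2 or 3 (adjusted p = 0.112, 0.123, 0.0597, 0.104 and 0.114). SLC25A4, the isoform of heart and skeletal muscle, stood at 7.28, 6.82 and 7.59 in tumor cells and at 6.57, 7.10 and 7.23 in normal cells, and the groups overlapped. The log2 fold change of SLC25A4 was 0.26 ± 0.24 (adjusted p = 0.525, limma).

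SLC25A6, a widely expressed isoform, stood at 11.75, 11.78 and 11.73 in tumor cells and at 11.61, 11.67 and 11.53 in normal cells. All tumor samples lay slightly above all normal samples, and the difference of 0.15 ± 0.10 did not pass (adjusted p = 0.396, limma). Its other probe set differed by 0.36 ± 0.11 (adjusted p = 0.0642 over all probe sets, limma), again with no overlap, at 9.39, 9.32 and 9.28 in tumor cells and 8.97, 9.02 and 8.92 in normal cells. SLC25A31, the isoform known from testis, was under the olfactory receptor level in both groups, at 1.66, 1.71 and 1.55 in tumor cells and 1.80, 1.43 and 2.14 in normal cells. These isoforms are close in sequence. Probe sequences were not used here, so signal shared between them was not tested.

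Of 7 measured carriers of phosphate, ATP-Mg and pyrimidine nucleotides, 1 fell, 1 rose and 5 were not called. Over all genes 9.44% fell and 8.56% rose. SLC25A3, which brings in the phosphate for ATP synthesis, stood at 9.25, 9.33 and 9.49 in tumor cells and at 9.77, 9.96 and 10.11 in normal cells. The groups were apart, and the fall was 0.59 ± 0.13 (adjusted p = 0.02, limma). The call was lost without tumor replicate 1 or 2 or normal replicate 2 or 3 (adjusted p = 0.0701, 0.0703, 0.0728 and 0.0537). SLC25A36, a pyrimidine nucleotide carrier, stood at 8.99, 8.75 and 8.41 in tumor cells and at 8.31, 7.33 and 7.18 in normal cells. Normal 1 was close to tumor 3, and the standard deviation in normal cells, 0.61, was the largest of any carrier in either group.

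SLC25A36 rose by 1.11 ± 0.30, or 2.16-fold (adjusted p = 0.0376, limma), a call lost without tumor replicate 1, 2 or 3 or normal replicate 2 or 3 (adjusted p = 0.119, 0.106, 0.0523, 0.129 and 0.101). Its relative SLC25A33, an insulin-responsive pyrimidine nucleotide carrier, differed by -0.40 ± 0.20 (adjusted p = 0.22, limma). The ATP-Mg/phosphate carriers, which set the adenine nucleotide content of the matrix, were not called. SLC25A24 stood at 7.86, 7.56 and 7.49 in tumor cells and at 7.67, 7.52 and 7.85 in normal cells, with overlapping groups and an interval from -0.38 to 0.29. SLC25A25 differed by 0.32 ± 0.18, with tumor samples at 5.51, 6.14 and 6.14 and normal samples at 5.56, 5.65 and 5.61, and it was called without tumor replicate 1 (adjusted p = 0.037). SLC25A23 and SLC25A41 differed by -0.14 ± 0.15 and 0.28 ± 0.20.

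Of 8 carriers for cofactors and glutathione, 1 rose and 1 fell, where over all genes 8.56% rose and 9.44% fell. SLC25A16, linked to coenzyme A uptake through its yeast relative, stood at 7.09, 7.06 and 7.12 in tumor cells and at 6.41, 6.42 and 6.32 in normal cells. The gap between the groups was several times the spread within them. The rise was 0.71 ± 0.10, or 1.63-fold (adjusted p = 0.00387, limma). SLC25A51, the NAD carrier, stood at 6.45, 6.51 and 6.28 in tumor cells and at 6.74, 6.82 and 6.95 in normal cells. Although the groups did not overlap, the fall of 0.42 ± 0.12 only just passed (adjusted p = 0.0456, limma). Leaving out any of the 6 samples ended the call (adjusted p = 0.0534 to 0.124), as did the replicate number as a block (adjusted p = 0.0933), further quantile normalization (adjusted p = 0.0638) and median centring (adjusted p = 0.0532).

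SLC25A17, the peroxisomal carrier of coenzyme A and related nucleotides, differed by 0.36 ± 0.11 (adjusted p = 0.0543, limma). SLC25A39, a glutathione importer, differed by -0.44 ± 0.13 (adjusted p = 0.0569; 0.0472 without tumor replicate 3). Neither gene had overlapping groups. SLC25A40, the other glutathione carrier, SLC25A26, which carries S-adenosylmethionine, SLC25A32, linked to folate and FAD, and SLC25A42, a coenzyme A carrier, differed by -0.35 to 0.20, and none of these was called.

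Of the 2 mitoferrins, which bring iron into the matrix for heme and iron-sulfur cluster synthesis, 1 rose, against 8.56% over all genes. SLC25A28, mitoferrin-2 of non-erythroid cells, stood at 7.59, 7.19 and 7.07 in tumor cells and at 6.37, 6.43 and 6.30 in normal cells. All tumor samples were well above the normal samples, and the rise was 0.92 ± 0.15, or 1.89-fold (adjusted p = 0.00648, limma). SLC25A37, mitoferrin-1 of developing red cells, stood at 5.29, 5.59 and 5.82 in tumor cells and at 5.77, 6.01 and 5.96 in normal cells. Tumor 3 was above normal 1, and the difference of -0.35 ± 0.16 did not pass (adjusted p = 0.182, limma).

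Among the 3 relatives of the uncoupling proteins, SLC25A30 rose, where the share that rose over all genes was 8.56%. SLC25A30 stood at 7.51, 7.0 and 7.14 in tumor cells and at 5.96, 6.59 and 6.65 in normal cells, with normal 1 the lowest of all. The rise was 0.82 ± 0.22 (adjusted p = 0.0359, limma). It was not called without tumor replicate 1, 2 or 3 or normal replicate 1 or 2 (adjusted p = 0.112, 0.0595, 0.0766, 0.0582 and 0.0681) or with the replicate number as a block (adjusted p = 0.081). SLC25A14 and SLC25A27, both best known from brain, differed by 0.04 ± 0.15 and 0.17 ± 0.12. The uncoupling proteins themselves belong to the family under other symbols. UCP2, the form found in many tissues, differed by -0.03 ± 0.16 and UCP3, the muscle form, by 0.06 ± 0.14, while UCP1, the heat-producing form of brown fat, was under the olfactory receptor level in both groups.

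The 8 carriers of other or unsettled substrate included 1 that fell and 1 that rose, against 9.44% and 8.56% over all genes. SLC25A35 stood at 3.19, 3.38 and 3.68 in tumor cells and at 4.37, 4.67 and 4.58 in normal cells. The groups were apart, and the fall was 1.12 ± 0.16, or 2.18-fold (adjusted p = 0.0031, limma). Its mean in tumor cells, 3.42, was under the olfactory receptor level, so the size is not exact. SLC25A45 stood at 4.38, 4.42 and 4.08 in tumor cells and at 3.79, 3.61 and 3.62 in normal cells, near that level in both. It rose by 0.62 ± 0.13 (adjusted p = 0.0166, limma), a call lost without tumor replicate 1 or 2 or normal replicate 2 (adjusted p = 0.0602, 0.0664 and 0.0687). SLC25A46, an outer membrane protein that takes part in mitochondrial fission and lipid traffic, differed by 0.09 ± 0.11, with overlapping groups. SLC25A34, SLC25A43, SLC25A47, SLC25A48 and SLC25A53 differed by -0.14 to 0.22, with SLC25A48 and SLC25A53 under the olfactory receptor level in both groups.

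Related carriers were then set against each other within samples, in 9 pairs that share a type of substrate. The quantity was the difference between the log2 fold changes of the pair. With 3 samples against 3 the exact two-sided permutation test cannot give a p below 0.1, so no pair could pass, and values adjusted over the 9 pairs were 0.225 at the lowest. SLC25A5 minus SLC25A6 was -0.91 ± 0.28 (exact permutation p = 0.1). SLC25A4 minus SLC25A5 was 1.02 ± 0.27 (exact permutation p = 0.1), and SLC25A4 minus SLC25A6 was 0.11 ± 0.32, with an interval from -0.78 to 1.01. The within-sample differences of tumor and normal samples did not overlap in the pairs that held SLC25A5, a carrier called on its own. How often other pairs of genes separate was not computed, and over all single genes the groups did not overlap in 35.7%.

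SLC25A12 minus SLC25A13 was 1.22 ± 0.35 (exact permutation p = 0.1), again with no overlap. In these samples the fall was larger for SLC25A13, which the permutation test could not decide. SLC25A37 minus SLC25A28 was -1.26 ± 0.32 (exact permutation p = 0.1), with no overlap. SLC25A33 minus SLC25A36 was -1.51 ± 0.61 (exact permutation p = 0.2), with groups that touched at -3.39. The glutathione carriers, SLC25A39 minus SLC25A40, gave -0.28 ± 0.16 with an interval from -0.74 to 0.17. For the ATP-Mg/phosphate carriers, SLC25A24 minus SLC25A25 was -0.37 ± 0.34 and SLC25A24 minus SLC25A23 was 0.10 ± 0.18, each with an interval that holds 0.

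**Figure D4:**
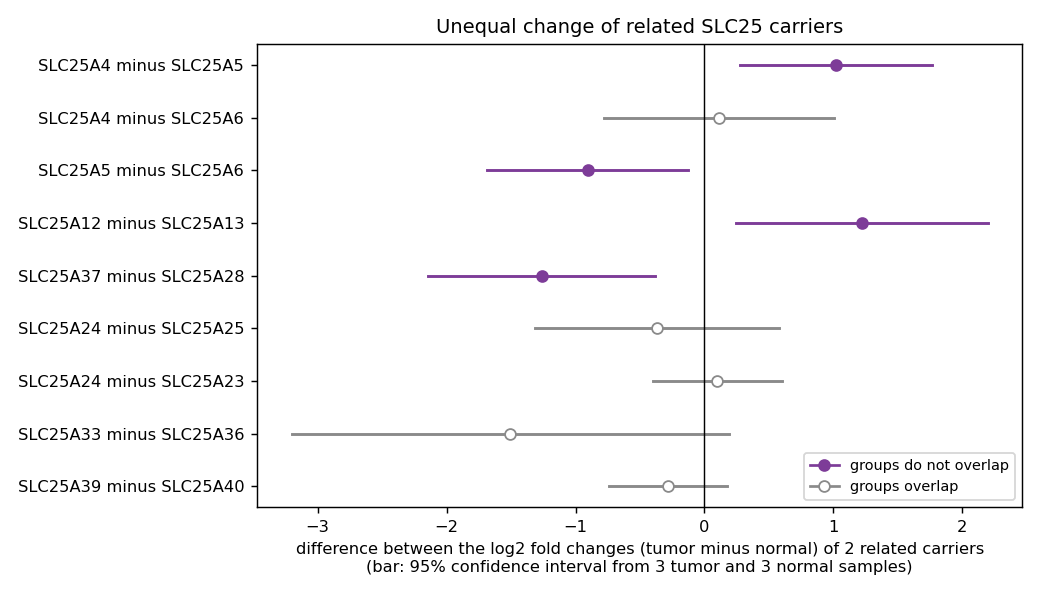
Difference between the log2 fold changes (tumor minus normal) of related carriers (x axis) for 9 pairs, with 95% confidence intervals from the spread within 3 tumor and 3 normal samples. Filled points mark the 4 pairs whose within-sample differences did not overlap between the groups: SLC25A4 minus SLC25A5, SLC25A5 minus SLC25A6, SLC25A12 minus SLC25A13 and SLC25A37 minus SLC25A28. Each of these pairs held at least 1 carrier that was called on its own. Over all single genes the groups did not overlap in 35.7%, and the share over other pairs of genes was not computed.

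Samples of a group differed in the carriers too. The mean over the 44 carriers was 6.01, 6.01 and 6.05 in tumor samples and 6.07, 6.12 and 6.19 in normal samples, while sample medians over all genes were 5.04, 5.04 and 5.02 in tumor and 5.06, 5.06 and 5.05 in normal samples. Among normal samples, normal 3 was the highest in 22 carriers (50%, against 34% over all genes) and normal 1 the lowest in 20 (45.5%, against 34.7% over all genes). Tumor 3 was the highest tumor sample in 19 carriers (43.2%, against 32.3% over all genes). Over all 24415 probe sets Pearson correlations were 0.988 to 0.991 between tumor samples, 0.983 to 0.991 between normal samples and 0.954 to 0.974 between the groups.

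Genes that work beside the carriers were described from 8 lists. These were written with earlier results of these data known, and they hold the 4 shuttle enzymes given above. Of 84 measured genes in these lists, 21 fell (25%) and 5 rose (5.95%), against 9.44% and 8.56% over all genes. Among genes above the olfactory receptor level in at least 1 group, 13% fell and 11.5% rose. In either direction 31% of the listed genes were called, against 24.5% of genes above that level. These shares were not tested against each other. The number called in either direction, 26, dropped to 14, 13 and 12 when tumor replicate 1, tumor replicate 2 or normal replicate 2 was left out. Of 15 measured enzymes and subunits of the tricarboxylic acid cycle, 6 fell and 0 rose by limma (0 also at an unadjusted p under 0.05 and in each other fit), with a median of -0.34. IDH3B, a subunit of the NAD-linked isocitrate dehydrogenase, fell by 1.01 ± 0.13 (adjusted p = 0.00222, limma), and SUCLA2, of the ADP-forming succinyl-CoA ligase, by 0.56 ± 0.13, with MDH2 as given above. The call of SUCLA2 was lost without tumor replicate 1 or 2, normal replicate 1 or 2 or with the replicate block (adjusted p = 0.0805, 0.0817, 0.0512, 0.0962 and 0.0546). Leaving out tumor replicate 1 or 2 or normal replicate 2 left 2 that fell, and leaving out normal replicate 3 left 3. Besides the 4 shuttle enzymes that fell, the list of the shuttle and of cytosolic NADPH supply held ACLY, IDH1 and ME1, which differed by 0.51, -0.37 and -0.28 and were not called. Leaving out tumor replicate 2 left 2 of these 7 that fell.

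In the list of porins, pyruvate carrier and calcium uniporter, 2 of 6 measured genes fell, with a median of -0.57. Over all genes 9.44% fell. MPC1, a subunit of the mitochondrial pyruvate carrier, stood at 7.57, 7.65 and 7.85 in tumor cells and at 8.85, 9.15 and 9.11 in normal cells. MCU, the pore of the calcium uniporter, stood at 6.99, 7.12 and 7.35 in tumor cells and at 8.22, 7.93 and 7.90 in normal cells. Neither overlapped between groups. MPC1 fell by 1.35 ± 0.13 and MCU by 0.86 ± 0.14 (adjusted p = 0.000745 and 0.00665, limma). MTCH2, a family member of the outer membrane, fell by 0.76 ± 0.14 (adjusted p = 0.00925, limma), the only call among 5 family members under other symbols; its relative MTCH1 differed by 0.34 ± 0.13 (adjusted p = 0.102, limma).

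In the carnitine shuttle and beta-oxidation list 2 of 17 fell and 1 rose, a share called near the 18% over all genes. CPT1A, which makes the acylcarnitines that SLC25A20 carries, stood at 5.92, 5.64 and 6.49 in tumor cells and at 7.56, 7.84 and 8.65 in normal cells. All tumor samples were more than 1 log2 unit below all normal samples, and the fall was 2.0 ± 0.31 (adjusted p = 0.00486, limma). ACADL, a long-chain acyl-CoA dehydrogenase, rose by 1.20 ± 0.18 (adjusted p = 0.00475, limma). HADHB fell by 0.41 ± 0.12 (adjusted p = 0.0462, limma), a call lost without tumor replicate 1, 2 or 3 or normal replicate 2 or 3 (adjusted p = 0.131, 0.142, 0.0642, 0.151 and 0.114) and with the replicate block or median centring (adjusted p = 0.0724 and 0.0541), so that 1 fell in those fits.

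Of 12 measured enzymes of glutamate, proline, ornithine, glycine and branched-chain amino acids, 4 fell and 1 rose, with a median of -0.18. Over all genes 9.44% fell and 8.56% rose. BCKDHB, of the branched-chain ketoacid dehydrogenase, fell by 2.40 ± 0.23 (adjusted p = 0.000666, limma). ARG2, the mitochondrial arginase, fell by 1.18 ± 0.25 (adjusted p = 0.0158, limma), a call lost without normal replicate 2 (adjusted p = 0.0586). Its tumor mean, 3.30, was under the olfactory receptor level, so the size is not exact. GLDC, of the glycine cleavage system, fell by 0.68 ± 0.14 but lay under the olfactory receptor level in both groups, and its call was lost without tumor replicate 1 or normal replicate 2 (adjusted p = 0.0522 and 0.0577). Leaving out tumor replicate 1 left 2 that fell, and normal replicate 2 left 1. OAT, ornithine aminotransferase, named after its values were seen, rose by 0.45 ± 0.12 (adjusted p = 0.0346, limma), a call lost without tumor replicate 1, 2 or 3 or normal replicate 1 or 2 (adjusted p = 0.1, 0.0653, 0.0957, 0.082 and 0.0997), with the replicate block (adjusted p = 0.0637) and with median centring (adjusted p = 0.0552).

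Of 12 regulators of mitochondrial biogenesis, 3 fell and 1 rose, with a median of -0.11, where over all genes 9.44% fell and 8.56% rose. PPARGC1A, the coactivator PGC-1 alpha, stood at 3.70, 3.95 and 4.49 in tumor cells and at 2.80, 2.47 and 2.62 in normal cells, where it was under the olfactory receptor level. It rose by 1.42 ± 0.21, and the methyltransferase TFB1M fell by 1.06 ± 0.11 (adjusted p = 0.00375 and 0.00098, limma). PPARGC1B, a relative of PPARGC1A, fell by 0.87 ± 0.20 (adjusted p = 0.0212, limma), a call lost without tumor replicate 1 or 2 or normal replicate 2 (adjusted p = 0.0734, 0.0724 and 0.0519), where 1 of the list fell. Of 11 measured genes of mitochondrial iron, heme and iron-sulfur clusters, 2 rose and 0 fell by limma, with a median of -0.18. The share called was near the 18% over all genes. At an unadjusted p under 0.05 by limma, 3 were lower. With either filter on dim probe sets or a mean-variance trend 1 fell, and with array weights 2 fell. The 2 that rose were TMEM14C, a heme synthesis protein, at 0.50 ± 0.12 (adjusted p = 0.0267, limma) and ISCA2, of iron-sulfur cluster assembly, at 0.63 ± 0.18 (adjusted p = 0.0491, limma). By limma 0 rose without tumor replicate 1, 2 or 3 or normal replicate 2, and 1 rose without normal replicate 1 or 3. The call of ISCA2 was also lost with further quantile normalization, median centring and a mean-variance trend (adjusted p = 0.0645, 0.0659 and 0.0555).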

How the data were processed

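RNA of cultured bovine ovarian stromal cells (3 tumor and 3 normal samples, grouped by title) was hybridised to microarrays. The deposited table held log2 expression for 24415 probe sets; the submitters' processing notes name RMA, with software and version not given in the sources used here. Symbols came from GEO's annotation of the platform, possibly outdated: 18457 probe sets had 1 symbol, 688 several, and 5270 were unnamed here. Of the 44 carriers, 43 had an identifier, and each matched the same symbol in the RefSeq table of ARS-UCD2.0. Tumor minus normal was fitted in R 4.3.3 by limma 3.58.1 (functions lmFit and eBayes) as a two-sided test without filter or covariate, with Benjamini-Hochberg adjustment over 18010 genes and a threshold of 0.05. Errors are standard errors for fold changes and standard deviations for levels. The code of the fit was checked on simulated data with independent samples and few changed genes, which does not test the calls given here. The members, lists and tests were chosen with earlier results of these data known. Named genes were every called carrier, the ADP/ATP carriers and 9 carriers listed by name (some also called), and of each partner list up to 3 called genes with the largest change and the UCP and MTCH genes; other members are given more briefly. Alternatives were further quantile normalization, median centring, filters on dim probe sets, other priors, array weights, a replicate block, the mean of probe sets, other thresholds and leaving out each sample. No scan date or scanner file was used, so batches were not examined. Precision is limited by the number of arrays.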

Additional observations from a re-analysis of the deposited data

How the results depend on the processing

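The 13 called carriers kept their direction in every alternative run. The carriers called numbered 12 to 17 under further quantile normalization, median centring, array weights, both filters on dim probe sets, a prior with a trend, a prior robust to outliers, the replicate block and the mean of probe sets. At an adjusted p of 0.01, 2 carriers rose and 3 fell, and over all genes 661 rose and 636 fell, with 11 partner genes called. With array weights 2362 genes rose and 2692 fell, and the median of the carriers was 0.0332, on the other side of 0 from -0.06. Leaving out 1 sample gave 2 to 4 carriers that rose and 3 to 7 that fell, 876 to 1451 genes that rose and 889 to 1775 that fell, 12 to 24 partner genes called, and a median of -0.12 to -0.03. These fits have fewer samples. Of carriers that were not called, SLC25A17 and SLC25A39 passed with both filters on dim probe sets, a trend and array weights, SLC25A17 also with further quantile normalization, and SLC25A20 and SLC25A44 with array weights (adjusted p = 0.0184 and 0.025). Signs turned in 8 carriers that were not called. The sign of SLC25A1 turned with further quantile normalization (0.0347), array weights (0.0161), without tumor replicate 1 (0.0167) or 3 (0.0117) and without normal replicate 1 (0.14), and leaving out 1 sample gave -0.14 to 0.14. That of SLC25A24 turned with further quantile normalization (0.00333), array weights (0.0418), without tumor replicate 3 (0.03) and without normal replicate 3 (0.0417), and leaving out 1 sample gave -0.155 to 0.0417. That of SLC25A31 turned with array weights (0.108) and without normal replicate 3 (0.025), and leaving out 1 sample gave -0.33 to 0.025. SLC25A14 turned with further quantile normalization (-0.00778) and without tumor replicate 2 (-0.0667) or normal replicate 2 (-0.0733). SLC25A21 (-0.025) and SLC25A23 (0.01) turned without tumor replicate 2, SLC25A32 with array weights (0.054) and without tumor replicate 1 (0.0283), and SLC25A42 without normal replicate 3 (-0.0683). The causes were not tested. Replicate numbers are shared by the groups. The deviations of same-numbered samples had correlations of 0.05, -0.06 and 0.07. With 3 samples per group these values cannot decide whether same-numbered samples were paired. With the replicate block 4 carriers rose and 8 fell, with SLC25A30 and SLC25A51 lost and SLC25A22 gained (adjusted p = 0.0388, limma), and 1345 genes rose and 1550 fell.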
